A study of Homo sapiens with 13 samples.

Results

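HepG2S1 cells taken off sorafenib were compared with HepG2, the line from which the study states they were derived, with no sorafenib in the medium of either. The 6 arrays of these groups are those whose labels give the exposure as sorafenib withdrawn at 20% O2 (n = 3) or as no sorafenib at 20% O2 (n = 3), of 13 arrays in the series, and all 18377 genes named by a single symbol were compared. HepG2 is a human hepatoblastoma line. By the study's account, HepG2S1 was made from it through a slow rise of the sorafenib dose over months and was then kept in the drug all the time. Sorafenib is an inhibitor of RAF and of receptor tyrosine kinases used against liver cancer. All cells grew for 72 h in Williams medium E with fetal calf serum, insulin and dexamethasone. The HepG2 flasks never met the drug. The withdrawn flasks went without it for these 72 h, and 4 further HepG2S1 arrays with 6 µM sorafenib at 20% O2 show what that time changed. The sorafenib was dissolved in dimethylsulfoxide, and whether the drug-free flasks received this solvent is not stated. HepG2S1 is a single derived line, so that drug history and any other difference between the lines cannot be told apart. Expression arrays give no genotype, and the shared origin of the lines was not tested.

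Hepatocytes make most proteins of the blood plasma, and HepG2 cells are widely used because they keep much of this secretory program. It is held by a network of transcription factors that includes the HNF4, FOXA and C/EBP families, whose binding sites lie close to the start of many plasma protein genes. Epithelial cells can lose their cadherin junctions and take up vimentin and other mesenchymal proteins, a change known as epithelial-mesenchymal transition, in which the SNAI and ZEB factors repress CDH1.

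Each value is a log2 level on 1 array, so that a difference of 1 is a 2-fold change. The arrays had medians of 7.32 to 7.42. Arrays of the same line correlated across all rows at 0.9957 to 0.9964 (HepG2) and 0.9975 to 0.9982 (withdrawn), and arrays of different lines at 0.9169 to 0.9223. A gene was called when its adjusted p in limma was under 0.05. Of 18377 genes, 5448 were higher (29.6%) and 4962 lower (27.0%) in the withdrawn cells, in all 10410 (56.6%). By 2-fold or more 1538 were higher (8.37%) and 1372 lower (7.47%), and by 16-fold or more 101 were higher (0.55%) and 157 lower (0.854%). The median log2 fold change over all genes was -0.01, and the 5th and 95th percentiles were -1.38 and 1.45. The lower quartile of the arrays had a median of 5.76, called the floor below, where array values flatten and folds are cut short. 37 genes (0.201%) lay below the lower quartile of all 3 HepG2 arrays and above the upper quartile of all 3 withdrawn arrays, and 64 (0.348%) showed the reverse. The arrays of the lines did not overlap on 11100 genes (60.4%), so that lack of overlap is common here.

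**Figure D1:**
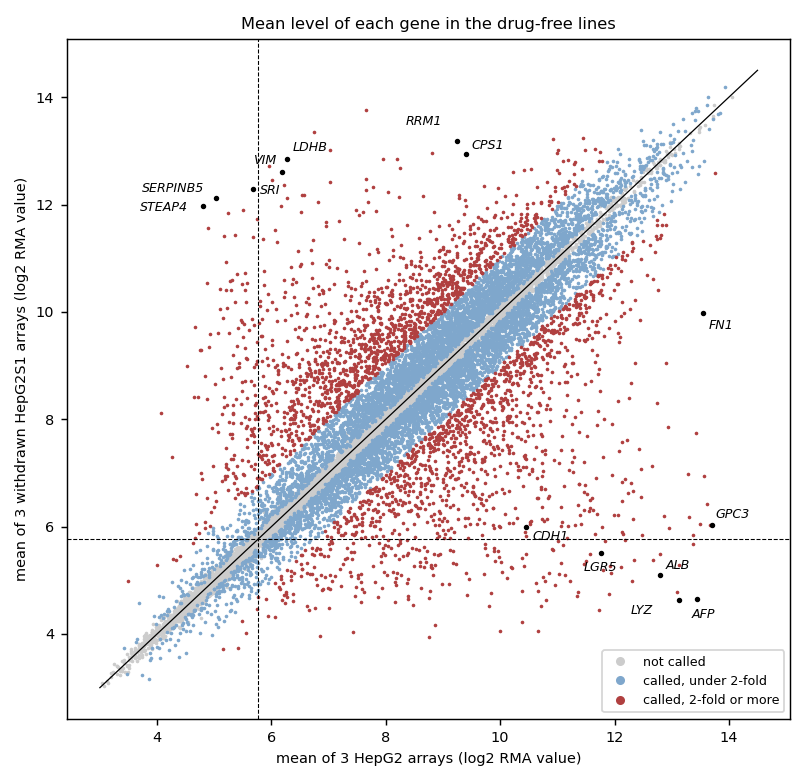
Each point is 1 gene, with its mean over the 3 HepG2 arrays on the x axis and over the 3 withdrawn HepG2S1 arrays on the y axis, both as log2 RMA values; the solid line marks equal levels and the dashed lines the floor of 5.76. AFP, ALB and LYZ lie at the lower right and STEAP4, SERPINB5 and VIM at the upper left, each with a log2 fold change above 6 in size.

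The cell type given by the labels was checked first. Of the hepatocyte markers ALB, AFP, APOA1, APOB, TTR, SERPINA1 and HNF4A, 6 were measured, and all 6 fell. Their summed level, as log2, was 15.39 to 15.47 on the HepG2 arrays and 8.96 to 9.07 on the withdrawn arrays. ALB and AFP lay below the floor on all 3 withdrawn arrays, and APOB, SERPINA1, TTR and APOA1 did not rise above 6.50, 6.08, 6.71 and 7.82 there. All of APOB, SERPINA1, TTR and APOA1 thus stayed above the floor of 5.76 on the 3 withdrawn arrays. SERPINA1 did so by little, at 5.83 on its lowest array, and APOA1 lay also above the median of the arrays. By these 6 markers the withdrawn cells lacked most of the hepatocyte signal of HepG2. They are called HepG2S1 here as in the labels, and the identity of the line was not tested. In whole cultures, fewer cells of a kind and less RNA per cell cannot be told apart.

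Markers of other cell types moved in part. Of 8 fibroblast markers DCN and LUM rose, COL3A1 was called lower, and COL1A1, COL1A2, PDGFRA, PDGFRB and THY1 were not called; the summed level was 10.00 to 10.20 in HepG2 and 12.43 to 12.49 in withdrawn cells. The difference of COL3A1 was -0.20 ± 0.08 (limma, adjusted p = 0.0455), and the call was lost with the 2 groups alone (0.0697), with trend and robust moderation (0.0568), and without HepG2 replicate 2 or withdrawn replicate 1 or 2 (0.232, 0.159 and 0.08). PDGFRA did not exceed 5.71 on any withdrawn array. Of 5 squamous markers 4 were measured, without TP63, and all 4 rose, SERPINB5, SFN, KRT5 and KRT14, by 7.09, 1.87, 1.79 and 0.45. KRT14 overlapped between the lines, at 7.893 to 8.155 in HepG2 and 8.098 to 8.663 in withdrawn cells. The summed level of the 4 was 9.73 to 9.90 against 12.76 to 12.82. SERPINB5 alone, one of the 12 largest rises, lay at 12.084 to 12.145 in withdrawn cells. A wider list of 23 squamous and clade B genes was mixed, with 9 higher, 3 lower and 11 not called, where 29.6% of all genes were higher. CSTA (-1.86) and DSC3 (-0.51) were among those lower. Of 4 bile duct markers KRT7 rose and KRT19 and SOX9 fell. CFTR was called higher by 0.15 ± 0.06 (limma, adjusted p = 0.0494) but lay below the floor on every array of both lines, at 4.75 to 5.03, where values have no settled order. Of 6 endothelial and blood markers none rose and CDH5, PECAM1 and CD14 fell, and PTPRC lay at 4.31 to 4.43 on the arrays of both lines. The part of other cells in the results below was not tested.

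**Figure D2:**
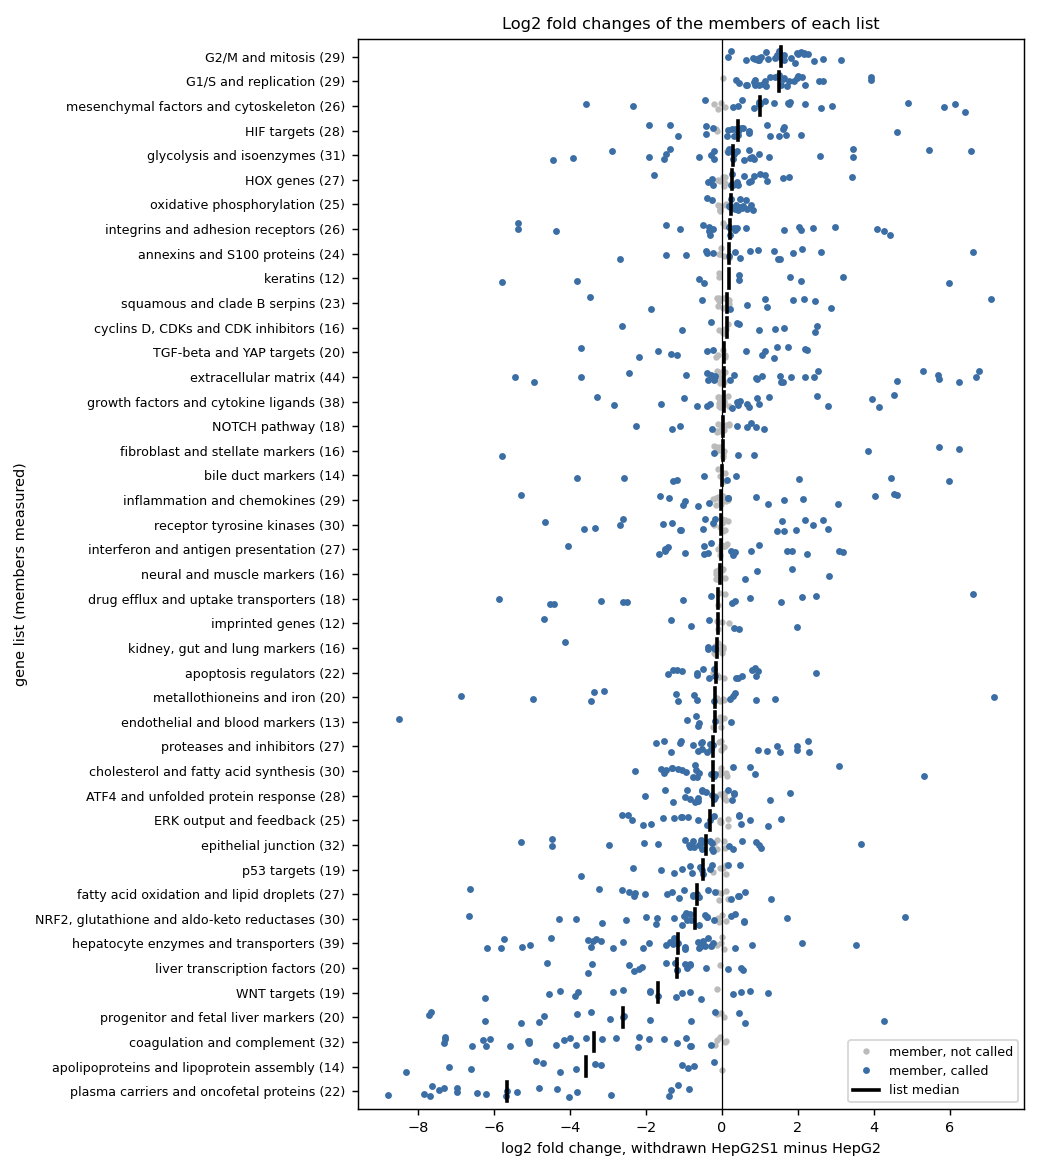
Each point is a gene of a list, placed by its log2 fold change (withdrawn HepG2S1 minus HepG2, x axis), in blue where it was called and in grey where it was not; the black bar is the median of the list, and lists on the y axis are in the order of their medians with the number of members measured. Plasma carriers are lowest, with a median of -5.67, and mitosis genes highest, with a median of 1.56, and 36 of the 43 lists held called genes of both directions.

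Genes of secreted liver proteins were among those with the deepest falls, beside others such as LYZ and GPC3, given below. ALB, albumin, the main carrier of the plasma, lay at 12.76, 12.94 and 12.66 on the HepG2 arrays and at 5.13, 5.07 and 5.12 on the withdrawn arrays. Its log2 fold change was -7.68 ± 0.07 (SE; limma, adjusted p = 2.77e-19). AFP, the fetal counterpart of albumin and a marker of liver tumours, lay at 13.48, 13.52 and 13.33 in HepG2 and at 4.63, 4.53 and 4.80 in withdrawn cells. The lines did not overlap on either gene, and both were below the floor in the withdrawn cells, so that the floor cuts their folds short. All 22 measured plasma carriers fell. Their median was -5.67 on the log2 scale, where 27.0% of all genes fell and the median of all was -0.01. Among the 12 largest falls of all genes were also the carriers ITIH2 (-7.84), TF, transferrin (-7.44), HP, haptoglobin (-7.31), and the protease inhibitor SERPINA3 (-7.64).

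Apolipoproteins and the factors that load lipoproteins fell almost as a whole, 13 of 14 with a median of -3.59, where 27.0% of all genes fell. APOB, the scaffold of very low density lipoprotein, lay at 13.65, 13.62 and 13.56 in HepG2 and at 6.50, 6.38 and 6.38 in withdrawn cells, a log2 fold change of -7.19 ± 0.07. APOH, which binds anionic phospholipids, went from 13.13, 13.15 and 13.00 to 4.81, 4.85 and 4.69 (-8.31 ± 0.09). The lines stood far apart on every array for both genes. Of 32 coagulation and complement genes 27 fell and none rose, with a median of -3.37. FGA and FGB, the alpha and beta chains of fibrinogen, had log2 fold changes of -7.31 ± 0.10 and -7.30 ± 0.08. FGB lay at 12.82, 12.57 and 12.62 in HepG2 and at 5.49, 5.24 and 5.38 in withdrawn cells, all below the floor. The 5 uncalled members were C1R, C1S, C9, F12 and PROS1, with log2 fold changes between -0.17 and 0.10.

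The regulators of the liver program fell too, but less deeply. Of 20 liver transcription factors 16 fell and 3 rose, with a median of -1.17, where 27.0% of all genes fell and 29.6% rose. PROX1, a homeobox factor of early liver growth, lay at 9.77, 9.61 and 9.75 in HepG2 and at 4.98, 5.22 and 5.15 in withdrawn cells (-4.60 ± 0.08). NR0B2, the small heterodimer partner of bile acid signalling, changed by -3.52 ± 0.14. The 3 that rose did so by less than 2-fold: ONECUT2 (0.56), ATOH8 (0.52) and CEBPB. Hepatocyte enzymes and transporters had 30 falls and 4 rises among 39, with a median of -1.15. HPD, which breaks down tyrosine, fell from 12.31, 12.27 and 12.38 to 6.03, 6.18 and 6.23 (-6.17 ± 0.06), and ALDH1A1, a retinaldehyde dehydrogenase, changed by -5.80 ± 0.08. CPS1, which feeds ammonia into the urea cycle, ran the other way, from 9.43, 9.28 and 9.47 in HepG2 to 12.92, 12.96 and 12.93 in withdrawn cells (3.54 ± 0.06). SLCO1B3, a bile acid and drug uptake carrier of hepatocytes, rose by 2.11 ± 0.13. These rises stood within a list in which most members fell, and neither gene overlapped between the lines.

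Genes of fetal liver and liver progenitors were mostly lower, 14 of 20 with 3 higher and a median of -2.59. GPC3, an oncofetal proteoglycan used as a marker of liver cancer, went from 13.68, 13.71 and 13.74 to 6.21, 5.90 and 6.00 (-7.67 ± 0.09), and SPP1, osteopontin, changed by -7.70 ± 0.07. CD44, the hyaluronan receptor, was the largest exception, from 7.41, 7.71 and 7.48 to 11.85, 11.80 and 11.77 (4.28 ± 0.07), and CD24 rose by 0.60 ± 0.09. Of 12 imprinted genes 4 fell and 3 rose, where 27.0% of all genes fell and 29.6% rose. DLK1, a fetal liver membrane protein, was at -4.67 and PLAGL1, a growth-arrest factor, at 1.98. IGF2 and H19 were not analysed here.

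HepG2 cells carry an activating change in beta-catenin, and targets of this pathway stood lower in the withdrawn cells. Of 19 WNT targets 14 fell and 4 rose, with a median of -1.69, where 27.0% of all genes fell and 29.6% rose. LGR5, a receptor of R-spondins, lay at 11.91, 11.78 and 11.58 in HepG2 and at 5.48, 5.61 and 5.46 in withdrawn cells (-6.24 ± 0.08), below the floor. NOTUM, which removes the lipid that WNT proteins need, changed by -4.56 ± 0.10. DKK1, a secreted WNT inhibitor, and LEF1, a partner of beta-catenin, were higher, at 1.22 and 0.74.

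The epithelial cadherin gene was near the floor in the withdrawn cells and vimentin was near it in HepG2. CDH1 lay at 10.68, 10.35 and 10.34 in HepG2 and at 5.94, 6.04 and 6.01 in withdrawn cells (-4.46 ± 0.08; limma, adjusted p = 6.28e-16). VIM, the intermediate filament of mesenchymal cells, lay at 6.05, 6.24 and 6.26 in HepG2 and at 12.60, 12.60 and 12.59 in withdrawn cells (6.41 ± 0.06; limma, adjusted p = 2.8e-19). The lines did not overlap on either gene. EPCAM, an epithelial adhesion molecule, changed by -5.30 ± 0.09 on the row used and by -6.35 on its other row. Of 32 epithelial junction genes 20 fell and 7 rose, with a median of -0.41, where 27.0% of all genes fell and 29.6% rose. By 2-fold or more 6 fell and 2 rose. DSC2, a desmosomal cadherin, changed by -4.48 ± 0.09. CLDN7, a tight junction claudin, and PKP2, a desmosomal plaque protein, rose by 3.67 ± 0.08 and 1.04 ± 0.05.

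The promoters of DSC2, which fell, and CLDN7, which rose, are shown because SNAI and ZEB factors bind E-boxes of the letters CACCTG or CAGGTG, given in capitals. Each runs over 300 bases, from 250 before to 50 after the RefSeq gene start in GRCh38.p14, at chr18:31102372-31102671 (DSC2, minus strand) and chr17:7263164-7263463 (CLDN7, minus strand).
DSC2: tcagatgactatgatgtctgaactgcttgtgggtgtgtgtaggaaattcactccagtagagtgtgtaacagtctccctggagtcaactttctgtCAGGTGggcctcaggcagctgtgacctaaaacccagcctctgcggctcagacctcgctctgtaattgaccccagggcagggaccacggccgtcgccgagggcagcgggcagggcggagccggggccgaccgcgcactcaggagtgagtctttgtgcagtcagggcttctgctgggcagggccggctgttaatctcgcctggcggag
CLDN7: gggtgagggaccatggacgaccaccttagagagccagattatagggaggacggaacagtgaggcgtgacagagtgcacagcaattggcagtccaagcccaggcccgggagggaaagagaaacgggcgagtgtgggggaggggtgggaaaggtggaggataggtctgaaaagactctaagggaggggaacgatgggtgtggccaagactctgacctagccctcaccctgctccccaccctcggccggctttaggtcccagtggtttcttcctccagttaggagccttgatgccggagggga
DSC2 holds 1 match, 156 bases before its start, and CLDN7 holds 0. Each of these letter strings is the other read on the opposite strand, so that both strands were searched. An E-box was present in 9 of 19 promoters of the epithelial junction list (47.4%), in 5 of 9 of the apolipoprotein list (55.6%), in 4 of 18 of the plasma carrier list (22.2%) and in 5 of 28 of the coagulation and complement list (17.9%). It was present in 2788 of 14210 promoters of the genes tested (19.6%). A match is a description of letters, not of binding. DSC2 and CLDN7 are only a pair of genes, and the shares of the lists were not split by direction. Whether an E-box goes with a fall was therefore not tested.

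Keratins moved in both directions. KRT7 lay at 7.08, 7.32 and 6.67 in HepG2 and at 13.01, 13.03 and 12.99 in withdrawn cells (5.98 ± 0.11). KRT19 went the other way, from 11.85, 11.75 and 11.87 to 8.03, 8.03 and 7.96 (-3.82 ± 0.08). KRT23 changed by -5.79 and KRT34 by 3.19. Of 12 keratins measured 6 rose and 4 fell, where 29.6% of all genes rose and 27.0% fell. KRT8 and KRT18, the keratin pair of simple epithelia, were lower by less than 2-fold.

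**Figure D3:**
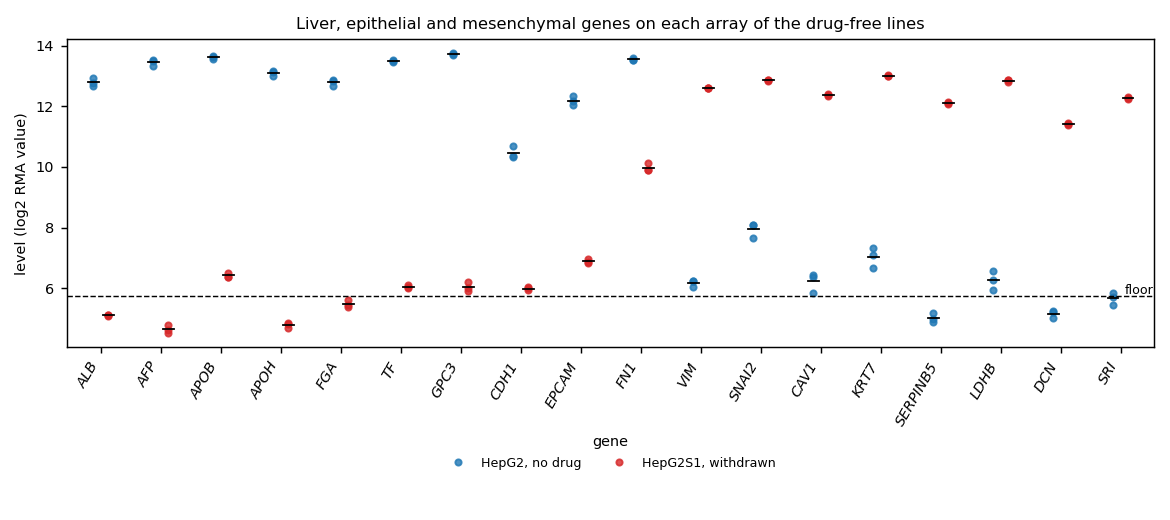
Level of each gene (log2 RMA value, y axis) on the 3 HepG2 arrays (blue) and the 3 withdrawn HepG2S1 arrays (red); the black bar is the mean of the arrays and the dashed line the floor of 5.76. The liver genes from ALB to GPC3, with CDH1, EPCAM and FN1, are higher in HepG2, and VIM to SRI are higher in withdrawn cells. The lines do not overlap on any of the 18 genes, as on 60.4% of all genes. Those named for the size of their change were picked among genes without overlap.

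Mesenchymal factors and cytoskeletal proteins were higher in the withdrawn cells in 19 of 26 genes and lower in 3, with a median of 0.99. Among all genes 29.6% were higher and 27.0% lower. SNAI2, a repressor of CDH1, lay at 7.65, 8.10 and 8.10 in HepG2 and at 12.83, 12.86 and 12.86 in withdrawn cells (4.90 ± 0.09). ZEB1, another such repressor, went from 9.15, 8.88 and 8.87 to 10.05, 9.97 and 9.90 (1.00 ± 0.08). SNAI1 overlapped between the lines, at 7.46, 7.66 and 7.56 and 7.72, 7.63 and 7.60, with a difference of 0.09 ± 0.08 (limma, adjusted p = 0.378) and an interval of -0.08 to 0.26 at 95%. CAV1, the coat protein of caveolae, changed by 6.13 ± 0.12, and CDH2, the neural cadherin, which HepG2 already held, by 0.85 ± 0.06. FN1, fibronectin, which is both a mesenchymal and a liver plasma protein, fell from 13.52, 13.53 and 13.59 to 10.13, 9.89 and 9.90 (-3.58 ± 0.09), and ACTA2, smooth muscle actin, changed by -2.34 ± 0.06.

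Extracellular matrix genes moved far in both directions. Of 44, 19 rose, 15 of them by 2-fold or more, and 10 fell, where 29.6% of all genes rose and 27.0% fell. The median of 0.05 turned to -0.003 when arrays were scaled to their 75th percentile. MFAP5, a microfibril protein, lay at 5.97, 5.85 and 6.07 in HepG2 and at 12.75, 12.69 and 12.73 in withdrawn cells (6.76 ± 0.06). EDIL3, an integrin ligand, and EFEMP1, a fibulin, changed by 6.68 ± 0.15 and 6.45 ± 0.12. DCN, the collagen-binding proteoglycan decorin, went from 5.03, 5.24 and 5.23 to 11.40, 11.45 and 11.40 (6.25 ± 0.08), beside uncalled COL1A1 and COL1A2. Largest among the falls were NID1, a basement membrane protein, at -5.45 ± 0.07, and the matricellular proteins SPARC and CCN2 at -4.96 ± 0.08 and -3.71 ± 0.11. Among integrins and other adhesion receptors 14 of 26 rose and 10 fell: ITGB8, an integrin that activates TGF-beta, was at 4.42, and the proteoglycans SDC2 and GPC6 at -5.38 and -5.37.

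A clade B serpin, SERPINB5, and an annexin, ANXA1, were among the 12 largest rises, while other members of these families fell or were not called. SERPINB5, maspin, lay at 4.91, 5.20 and 4.98 in HepG2 and at 12.08, 12.14 and 12.12 in withdrawn cells (7.09 ± 0.07). SERPINB7 rose by 2.87 and SERPINB9, an inhibitor of granzyme B, changed by -3.48. Of 23 squamous and clade B genes 9 rose and 3 fell, and the cornified envelope genes IVL, SPRR1A, SPRR1B and SPRR3 were not called. ANXA1, a phospholipid-binding protein, went from 7.12, 6.63 and 6.46 to 13.35, 13.38 and 13.35 (6.62 ± 0.12). Of 24 annexins and S100 proteins 12 rose, S100A4 by 2.62 among them, and 6 fell, ANXA9 with -2.69. Of 27 proteases and inhibitors 8 rose, led by the cathepsin CTSZ (2.30) and the matrilysin MMP7 (2.27), and 14 fell, led by CTSB (-1.72) and TFPI (-1.51). Over all genes 29.6% rose and 27.0% fell.

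HOX genes, which encode position along the body axis, were higher in 15 of 27 measured and lower in 4, with a median of 0.28. Among all genes 29.6% were higher and 27.0% lower. The list held 39 HOX genes, and HOXA2 was the only gene of the HOXA cluster measured. HOXC10 lay at 6.01, 5.75 and 5.90 in HepG2 and at 9.26, 9.34 and 9.34 in withdrawn cells (3.42 ± 0.07). HOXC13 went from 7.33, 7.52 and 7.29 to 9.16, 9.09 and 9.22 (1.78 ± 0.06), and HOXA2 from 7.60, 7.48 and 7.61 to 5.67, 5.85 and 5.83 (-1.78 ± 0.09). The lines did not overlap on these 3 genes. HOXD12 was called lower at -0.35 ± 0.13 (limma, adjusted p = 0.0302), a call lost without HepG2 replicate 1 or 2 or withdrawn replicate 1 (adjusted p = 0.0580, 0.0919 and 0.184), and its mean was below the floor in withdrawn cells.

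Of 30 receptor tyrosine kinases 8 rose, 13 fell and 9 were not called, where 29.6% of all genes rose and 27.0% fell. EGFR, the receptor of epidermal growth factor, went from 8.67, 8.59 and 8.50 in HepG2 to 11.42, 11.37 and 11.32 in withdrawn cells (2.79 ± 0.06). ROR2, a WNT5A receptor, and AXL, the GAS6 receptor, changed by 2.66 ± 0.10 and 2.18 ± 0.06. FGFR3, a fibroblast growth factor receptor, went from 11.40, 11.14 and 11.62 to 7.80, 7.70 and 7.77 (-3.63 ± 0.09), and MERTK, a relative of AXL, changed by -4.66 ± 0.07. KIT, a target of sorafenib, lay below the floor in both lines, at a difference of -0.22 ± 0.08. Of 38 ligands 14 rose and 7 fell, the median of 0.05 turning to -0.003 under 75th percentile scaling. FGF2 went from 6.47, 6.47 and 5.76 to 10.45, 10.37 and 10.30 (4.13 ± 0.14) and BMP2 changed by 4.52 ± 0.12, while BMP4 changed by -3.28 ± 0.07 and INHBE, an activin subunit, by -2.84 ± 0.08.

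Genes switched on by ERK signalling were mostly lower in the withdrawn cells, with no drug in the medium of either line. Of 25 ERK output and feedback genes 14 fell and 6 rose, with a median of -0.31. EGR1, an immediate early factor, lay at 12.09, 11.95 and 12.18 in HepG2 and at 9.35, 9.48 and 9.52 in withdrawn cells (-2.63 ± 0.08). SPRY4 and DUSP6, feedback inhibitors of the pathway, changed by -2.48 ± 0.08 and -1.86 ± 0.08. DUSP4, a phosphatase of the same family, and JUNB rose by 1.57 ± 0.09 and 1.22 ± 0.08. Among 20 TGF-beta and YAP targets 8 rose, PMEPA1 with 2.23, and 7 fell, ID2 with -2.19. Of 18 NOTCH pathway genes 5 rose, JAG2 and NOTCH1 by 1.12 and 0.89, and 4 fell, JAG1 and HES1 with -2.26 and -1.31. The NOTCH counts are near the shares of all genes, of which 29.6% rose and 27.0% fell.

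Genes of DNA replication and mitosis were higher almost without exception. All 29 mitosis genes and 28 of 29 G1/S and replication genes rose, with medians of 1.56 and 1.51, where 29.6% of all genes rose. CCNE2, cyclin E2, lay at 7.19, 6.91 and 6.74 in HepG2 and at 10.87, 10.94 and 10.86 in withdrawn cells (3.94 ± 0.11). RRM1, the large subunit of ribonucleotide reductase, went from 9.27, 9.16 and 9.30 to 13.17, 13.20 and 13.19 (3.94 ± 0.06). MKI67, a marker of cycling cells, rose by 1.94 ± 0.06, and ASPM and CENPF, proteins of the spindle and the centromere, by 3.14 ± 0.15 and 2.68 ± 0.16. CCNE1, cyclin E1, was the uncalled member, at 0.03 ± 0.07. Of 16 D cyclins, CDKs and CDK inhibitors 7 rose, 3 fell and 6 were not called. The D cyclins differed in direction, CCND3 at 2.46 against CCND1 at -1.05 and CCND2 at -2.63, and CDK2 rose by 2.50. CDKN2A, which encodes an inhibitor of CDK4 and CDK6, went from 9.47, 9.65 and 9.66 to 11.025, 10.985 and 10.995 (1.41 ± 0.06). Its neighbour MTAP missed the threshold at 0.15 ± 0.06 (limma, adjusted p = 0.0511), although the arrays of the lines did not overlap.

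Targets of p53 were lower in 12 of 19 and higher in 2, with a median of -0.49, where 27.0% of all genes were lower and 29.6% higher. TP53INP1, a stress-induced p53 cofactor, went from 10.92, 10.91 and 11.01 to 7.40, 7.31 and 7.01 (-3.71 ± 0.09), and SPATA18, which acts on damaged mitochondria, changed by -2.35 ± 0.08. FAS, the death receptor, rose by 0.47 ± 0.07. XPC was called at 0.17 ± 0.06 (limma, adjusted p = 0.0312), a call lost without any single HepG2 array or withdrawn replicate 1 (adjusted p = 0.0533 to 0.176). It was also lost with 75th percentile scaling, array weights and the 2 groups alone (limma, adjusted p = 0.121, 0.103 and 0.0694). Of 22 apoptosis regulators 8 rose, with PMAIP1, NOXA, at 2.48 and BCL2 at 0.96, and 10 fell, with BMF at -1.42 and CASP10 at -1.29. The apoptosis list thus moved in both directions, as did all genes (29.6% higher and 27.0% lower).

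Lactate dehydrogenase showed the largest change in central metabolism. LDHB, the form that favours lactate use, lay at 5.94, 6.57 and 6.29 in HepG2 and at 12.80, 12.85 and 12.86 in withdrawn cells (6.57 ± 0.11). LDHA, the form that favours lactate output, went from 13.19, 13.23 and 13.17 to 13.54, 13.62 and 13.60 (0.39 ± 0.05). PDK4, which shuts down pyruvate dehydrogenase, changed by 5.46 ± 0.08, and the liver glucose transporter SLC2A2 by -4.44 ± 0.09. Of 31 glycolysis genes and isoenzymes 19 rose and 11 fell, with a median of 0.29. HIF targets had 20 rises and 6 falls among 28 and a median of 0.43, with LOX, lysyl oxidase, at 4.62 and the glucose transporters SLC2A1 and SLC2A3 lower at -1.37 and -1.92. VEGFA rose by 0.27 ± 0.05. Of 25 oxidative phosphorylation genes 16 rose and 2 fell, none by 2-fold, with a median of 0.25. Over all genes 29.6% rose and 27.0% fell, the shares against which the counts of these metabolic lists are to be read.

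Lipid genes were mostly lower, where 27.0% of all genes were lower and 29.6% higher. PLIN2, the coat protein of lipid droplets, went from 12.41, 12.48 and 12.56 in HepG2 to 5.88, 5.86 and 5.81 in withdrawn cells (-6.63 ± 0.05). Fatty acid oxidation and lipid droplet genes had 17 falls and 5 rises among 27 and a median of -0.66, with PPARG, the fat cell regulator, up by 1.29. Cholesterol and fatty acid synthesis genes had 17 falls and 5 rises among 30 and a median of -0.23. SQLE, squalene epoxidase, and GPAM, which starts triglyceride synthesis, changed by -1.59 ± 0.07 and -2.28 ± 0.06. INSIG1, which holds back sterol synthesis, and ME1, malic enzyme, which makes NADPH, rose by 3.09 ± 0.11 and 5.32 ± 0.07. The members of the synthesis list that rose are thus not all enzymes of synthesis.

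Glutathione enzymes moved in both directions. GPX2, a glutathione peroxidase, went from 12.84, 12.83 and 12.94 to 6.30, 6.11 and 6.21 (-6.66 ± 0.08), and AKR1C2, a steroid reductase, changed by -4.29 ± 0.13. GSTP1, a glutathione transferase, went from 7.59, 7.63 and 7.74 to 12.53, 12.46 and 12.44 (4.83 ± 0.06). The list of NRF2 targets, glutathione enzymes and aldo-keto reductases had 20 falls and 6 rises among 30, with a median of -0.71. Of 20 metallothionein and iron genes 6 rose, 10 fell and 4 were not called, with a median of -0.17. The shares of all genes were 29.6% higher and 27.0% lower. CP, the plasma ferroxidase ceruloplasmin, and SLC40A1, the iron exporter ferroportin, changed by -6.86 ± 0.14 and -4.97 ± 0.09. STEAP4, a metalloreductase, was the largest rise of all genes, from 4.39, 4.97 and 5.04 to 11.944, 11.995 and 11.972 (7.17 ± 0.12).

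Of 18 drug efflux and uptake transporters and their partners 7 rose, 8 fell and 3 were not called, where 29.6% of all genes rose and 27.0% fell. Efflux pumps were not counted apart from uptake carriers. ABCB1, P-glycoprotein, lay at 10.04, 9.99 and 9.87 in HepG2 and at 5.58, 5.51 and 5.56 in withdrawn cells (-4.42 ± 0.07), all 3 below the floor. ABCG2, another efflux pump, went from 6.77, 6.60 and 6.95 to 9.27, 9.25 and 9.23 (2.48 ± 0.08), and ABCA1, a cholesterol exporter, changed by -4.54 ± 0.09. SLCO4C1 was lower on both of its rows, with log2 fold changes of -5.86 and -0.53, which differ widely in size. SRI, the calcium-binding protein sorcin, whose gene lies near ABCB1 and which is known to be co-amplified with it in resistant lines, went from 5.46, 5.84 and 5.72 to 12.28, 12.25 and 12.32 (6.61 ± 0.08). In gene order along this part of chromosome 7, singled out after its values were seen, ABCB4 and ABCB1 fell (-3.18 and -4.42). SLC25A40, DBF4 and ADAM22 rose (1.34, 1.16 and 0.79), SRI and STEAP4 rose by 6.61 and 7.17, ZNF804B was not called (-0.02), and STEAP1 and STEAP2 fell (-3.37 and -3.43). The rises at SRI and STEAP4 thus lay between genes that fell, ABCB1 and ABCB4 before them and STEAP1 and STEAP2 after them.

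Of 29 inflammation and chemokine genes 10 rose, 7 fell and 12 were not called, close to the shares of all genes. IL18, a cytokine activated by the inflammasome, went from 6.79, 6.51 and 6.87 to 11.29, 11.39 and 11.35 (4.62 ± 0.10), and PTGES, which makes prostaglandin E, from 7.70, 7.81 and 7.83 to 12.36, 12.29 and 12.31 (4.54 ± 0.05). CCL20, a chemokine of liver and gut epithelium, went from 11.43, 11.23 and 11.27 to 6.07, 6.00 and 6.02 (-5.28 ± 0.08). Interferon and antigen presentation genes had 10 rises and 11 falls among 27, with IFI44L and HERC5 at 3.18 and 3.08 and MX2 and IRF9 at -4.06 and -1.66. LYZ, lysozyme, listed among blood cell markers but also secreted by epithelia, went from 13.13, 13.09 and 13.15 to 4.84, 4.53 and 4.50 (-8.50 ± 0.08), beside PTPRC near the bottom of the range in both lines.

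The HepG2S1 arrays with sorafenib showed how much of each level followed the last 72 h. Between withdrawn and sorafenib arrays, 1852 genes were higher (10.1%) and 1451 lower (7.9%) in withdrawn cells. Of the 12 largest rises against HepG2, 2 were called in this comparison (DCN and SERPINB5, by 0.82 and 0.29), and of the 12 largest falls none was, with differences of -0.16 to 0.21. A difference that missed the threshold does not show equal levels, and 8 of the 12 falls lay below the floor in withdrawn cells. Of 22 plasma carriers 1 rose after withdrawal, and VIM, SNAI2, CDH1 and CAV1 were not called.

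Other genes were still different from HepG2 after withdrawal but had moved within HepG2S1. EGR1 lay at 8.59, 8.74, 8.55 and 8.62 with sorafenib, and the withdrawn arrays were higher by 0.82 ± 0.08 and still below HepG2. SLC2A1 showed the same order, with 10.24, 10.35, 10.22 and 10.21 under the drug, a difference of 0.99 ± 0.06 to the withdrawn arrays. CCNE2 lay at 10.09, 9.67, 10.06 and 9.86 with sorafenib and was higher without it by 0.97 ± 0.11. IGFBP3, a carrier of insulin-like growth factors, went from 8.93, 8.86, 8.87 and 8.80 with the drug to 10.27, 10.11 and 10.19 without it (1.33 ± 0.11), against 8.65, 8.32 and 8.29 in HepG2. The amino acid response gene ASNS moved away from HepG2: it lay at 10.94, 10.86 and 11.02 in HepG2, 10.79, 10.66, 10.74 and 10.74 with sorafenib and 9.72, 9.68 and 9.59 after withdrawal, a difference of -1.07 ± 0.07 within HepG2S1. ALDH1L2 and INHBE were likewise lower without the drug, with differences of -1.05 ± 0.09 and -0.78 ± 0.07. DDIT3, the stress factor CHOP, was higher than in HepG2 in both HepG2S1 groups and lower without the drug than with it, at -0.77 ± 0.07. Of 28 ATF4 and unfolded protein response genes 13 were lower and 6 higher in withdrawn than in sorafenib arrays. Of 28 HIF targets 18 were higher and none lower, and of 29 G1/S genes 18 were higher and none lower. ERK genes had 9 rises and 3 falls among 25 in this comparison.

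**Figure D4:**
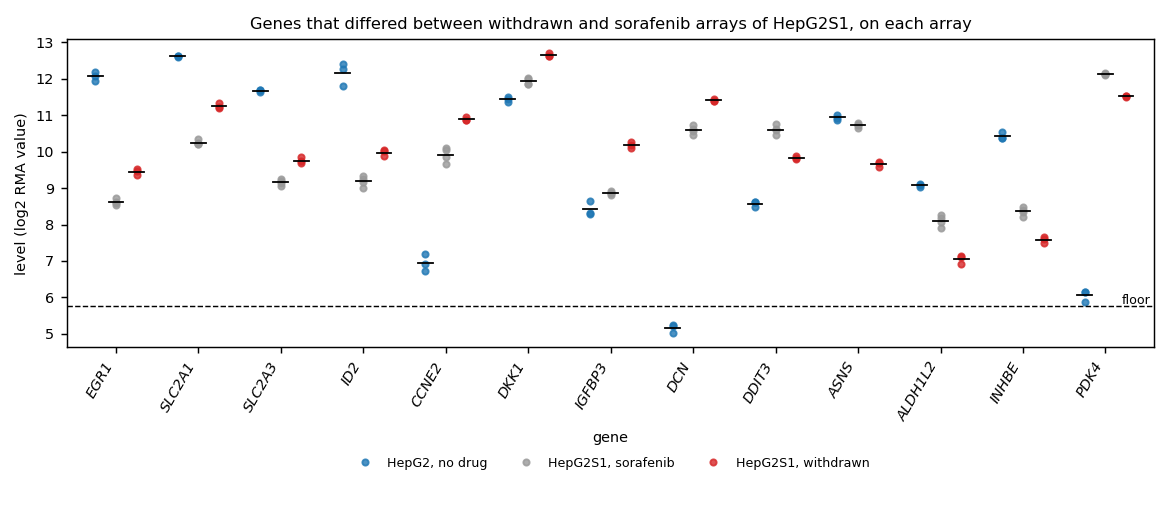
Level of 13 genes (log2 RMA value, y axis) on the 3 HepG2 arrays (blue), the 4 HepG2S1 arrays with sorafenib (grey) and the 3 withdrawn HepG2S1 arrays (red), with black bars for the means and a dashed line for the floor of 5.76. Withdrawn arrays lie between the other groups for EGR1, SLC2A1, SLC2A3 and ID2, beyond the sorafenib arrays for ASNS, ALDH1L2 and INHBE, and between HepG2 and the sorafenib arrays for DDIT3 and PDK4.

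A few genes stood at the HepG2 level without the drug and away from it with the drug. These were singled out after their values were seen, and the comparisons share arrays. THBS1, a matrix glycoprotein and activator of TGF-beta, lay at 11.56, 11.49 and 11.67 in HepG2, at 11.64, 11.62 and 11.63 in withdrawn cells and at 10.50, 10.23, 10.37 and 10.34 with sorafenib. The withdrawn arrays differed from HepG2 by 0.06 ± 0.09 (95% interval -0.13 to 0.24) and from the sorafenib arrays by 1.27 ± 0.08. EREG, an EGF receptor ligand, and IER3, an ERK-induced survival gene, differed from HepG2 by 0.00 ± 0.09 and -0.05 ± 0.09, and from the sorafenib arrays by 0.79 ± 0.08 and 0.68 ± 0.08. For CCNE1 the values were 0.03 ± 0.07 and 0.70 ± 0.07. Withdrawn and HepG2 arrays overlapped on THBS1, EREG, IER3 and CCNE1, and the intervals leave room for differences of up to 0.24 in size.

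Fold changes differed by chromosome. The 8913 autosomal genes in the upper part of the level range had a median of 0.05, with 42.0% higher and 34.3% lower. The median was highest on chromosomes 18 (0.52), 21 (0.42), 12 (0.37) and 10 (0.35), and lowest on chromosomes 2 (-0.28), 14 (-0.28) and 20 (-0.24). The SD of a chromosome's median over the 3 withdrawn arrays, each set against the mean of the HepG2 arrays, was at most 0.04. It leaves out the spread of the HepG2 arrays. On chromosome 18, 73.9% of 134 genes were higher and 12.7% lower, and on chromosome 2, 20.7% of 599 were higher and 59.9% lower. Among runs of at least 5 neighbouring genes all changed by 2-fold or more the same way, 6 were found, 5 of them higher. A pair of these lay in the histone gene clusters of chromosome 6, H2BC11 to H2AC12 with rises of 2.03 to 2.44 and H2AC14 to H1-5 with rises of 1.17 to 2.57; probes of such near-identical copies can share signal. The lower run, on chromosome 14, held the proteasome activator genes PSME1 and PSME2 and IRF9, a subunit of the interferon-activated ISGF3 factor, with log2 fold changes of -1.84 to -1.40. Over 10 alternatives the median of chromosome 18 lay between 0.46 and 0.56 and that of chromosome 2 between -0.33 and -0.27, and no median named above changed sign. DNA copy number was not measured.

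**Figure D5:**
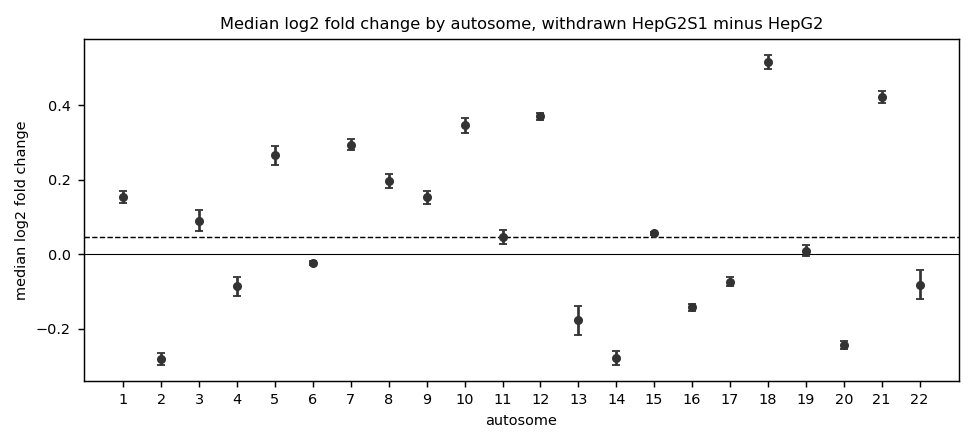
Median log2 fold change (withdrawn HepG2S1 minus HepG2, y axis) of the genes of each autosome (x axis) whose mean level was above the median. Bars are the SD over the 3 withdrawn arrays, each set against the HepG2 mean, and leave out the spread of HepG2. The dashed line marks the median of all these genes, 0.05. Chromosome 18 is highest at 0.52, and chromosomes 2 and 14 are lowest at -0.28.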

How the data were processed

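Each of 13 flasks gave RNA for 1 Affymetrix HuGene array. The values deposited by the authors are log2, and per the submitters' processing notes they come from RMA, whose version is not given in the sources used here. No batch or scan time is named. RMA draws low signals together, which shrinks folds near the floor. Of 28926 rows, 19310 had 1 gene symbol (1752 several, 7864 none) in the platform annotation, and 19279 were matched by Entrez ID to the RefSeq table of GRCh38.p14, used for names, gene order and chromosomes. For 685 genes with several rows the brightest row on average was used, which left 18377 genes, with no filter on low values.

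The comparison used limma 3.58.1 in R 4.3.3 (lmFit, eBayes), with all 13 arrays in 1 fit over 4 groups and Benjamini-Hochberg adjustment over all genes. A fold change is withdrawn minus HepG2 unless stated, with its SE. The labels describe separate flasks and do not say whether they came from separate cultures, and the p-values reflect the spread of flasks alone. That spread was small, with a median SD of 0.10 for HepG2 and 0.06 for withdrawn arrays, and the number of arrays limits the precision. Simulated data held 18377 genes with 50 changed at each size. The fit recovered 42%, 82%, 94% and 100% of genes changed by 0.3, 0.5, 1 and 2 in log2, with 11 false calls of 170. Far fewer genes changed there than the 56.6% called here, and the adjustment depends on that share. These rates thus do not carry over to the real comparison.

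Named genes were, among called genes with no overlap of the arrays, the 12 with the largest rise and the 12 with the largest fall, the 2 largest called rises and falls of each of 43 gene lists, and 31 genes chosen by hand, of which 27 were measured; no unnamed locus and no gene of the Y chromosome was named. The comparison, the lists and the genes were chosen with earlier results of these data known, so that lists are described by counts and medians with no test. The lists held 1076 genes, of which 973 were measured and 747 called. Intervals are at 95%. Promoter sequences are from RefSeq, and 1 planned promoter motif is not reported here. Plots came from matplotlib 3.10.9 (Python 3.11.15). Alternatives were trend and robust moderation, array weights, a fit of the 2 lines alone, a level filter (33rd percentile), 75th percentile scaling, repeated quantile normalization, the mean over rows, a threshold of 0.01, members below the floor left out, another cutoff for the genes near the floor, and each array left out.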

Additional observations from a re-analysis of the deposited data

Results flagged for a closer look

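Among the 4 HepG2S1 arrays with sorafenib, the only group of this report large enough for the check, 11 named genes had 1 array apart from the others by more than Dixon's 95% critical value for the gap as a share of the range. Chance flags about 1 in 20 such groups, and 177 genes were checked. The shares were 0.992 for VEGFA, 0.978 for IL18, 0.967 for SERPINF1, 0.961 for CCN2, 0.931 for BMF, 0.882 for EDIL3, 0.871 for CASP10, 0.867 for DUSP4, 0.864 for PLIN2, 0.854 for SRI and 0.847 for SDC2. On VEGFA 3 arrays lay at 11.26 and the other at 11.19, and on SERPINF1 the lone array lay at 5.70 against 6.05 to 6.06. These arrays enter the comparison with HepG2 only through the spread that the groups share in the fit.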

How the results depend on the processing

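No paired analysis was possible because the labels give no replicate numbers and nothing ties a HepG2 flask to a withdrawn flask. Across 16 alternatives, 104 of 106 recomputed counts over all genes stayed within 1.5 times the main count. With the array median in place of the upper quartile, the genes near the floor in HepG2 and high in withdrawn cells numbered 78 in place of 37, and those with the reverse pattern 125 in place of 64, a lower bar by construction. Of calls, 52.3% were higher in withdrawn cells, and 47.2% to 54.2% over the alternatives. No named gene changed direction: of 2465 recomputed values 23 lost and 3 gained the call, all in 5 genes (COL3A1, HOXD12, KIT, MTAP and XPC). COL3A1 lost it with the 2 groups alone (limma, adjusted p = 0.0697), and KIT without HepG2 replicate 2 (adjusted p = 0.109), among others; MTAP gained it with the 33rd percentile filter (0.0347). The cause was not tested. 8 lists with medians near 0 changed sign: extracellular matrix, growth factors, NOTCH, inflammation, interferon, fibroblast, bile duct and neural and muscle genes. Of 220 recomputed chromosome medians 91 moved by more than their SD over the withdrawn arrays, by at most 0.12, and those of chromosomes 11 and 19, near 0, changed sign. Of 645 recomputed list medians 144 moved. Values below the floor, such as AFP and ALB in withdrawn cells and STEAP4 and SERPINB5 in HepG2, have no settled order. The table holds no detection calls, and sorafenib-treated HepG2 was not analysed here.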
